A study of Mus musculus with 12 samples.

Results

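The 10 genes described here belong to the programme by which mesenchymal precursors become fat cells: the transcription factors Pparg, Cebpa, Cebpb, Cebpd, Klf15, Zfp423, Ebf1 and Ebf2, the lipase gene Lpl and the hormone gene Lep, which encodes leptin. Their open chromatin was read from the peak list of each of 12 ATAC-seq libraries of mouse cells; in this assay a transposase inserts adapters where DNA is accessible. Overlapping peaks of all libraries on chromosomes 1 to 19 and X (at least 1 bp shared) were merged into 153346 regions, and a region was called in a library where a peak of that library overlapped it. The 10 genes, of 21627 protein-coding genes in the RefSeq table of GRCm38, are those nearest to 228 of the regions, with 100 kb as the largest distance. The genes were picked with their calls in EF_IGF1 against EF cells in view, so that contrast is described for them without a test.

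The labels call the cells MSCLCs and give 5 genotype groups: EF_IGF1_xeno (n = 1), EF_IGF1 (n = 2), EF (n = 4), Wt_IGF1 (n = 1) and Wt (n = 4). The series title joins EWS::FLI1, a fused transcription factor that drives Ewing sarcoma, with IGF-1, a growth factor that signals through a receptor kinase, and with YAP1, in mesenchymal stem cells of bone; the design text also names EFPrx1, ha-EFPrx1 and hr-EFPrx1 cells, without saying which label each one matches. What xeno, ha and hr stand for, the IGF1 dose and its duration, the ages of animals and the way EWS::FLI1 was switched on are not stated in the labels or the series text. All libraries of the 3 EF groups came from 2 lines, S_220 and S_221, the xeno library from S_221, and nothing in the labels says that libraries of a group came from separate animals. Wt_IGF1 and Wt replicate 3 share the line name BM. Flowcell BSF_1013 carried 8 libraries, among them every IGF1 and xeno library, and flowcell BSF_0654 carried replicates 1 and 2 of EF and of Wt.

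Adipogenesis runs as a relay. Cebpb and Cebpd are switched on first by hormones and growth signals, and their products turn on Pparg, the nuclear receptor that fat cells cannot form without, and Cebpa, which keeps the mature state; both of these then act on each other and on genes of lipid storage. Klf15 adds to the activation of Pparg, Zfp423 commits precursors to the fat lineage, and Ebf1 and Ebf2 act in the same precursors, Ebf2 as a factor of brown and beige fat. Lpl splits the triglycerides of lipoproteins for uptake, and Lep is the hormone that fat cells send out in step with their stores. In bone marrow the same stromal precursors can become osteoblasts or fat cells. An open region near a gene shows accessible DNA, not that the gene is expressed.

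Sequences of the windows from 250 bases before to 50 after annotated starts show where the data touch the control DNA of Pparg and Lep. RefSeq (GRCm38.p6) gave 11 such windows of 300 bases for 7 of the 10 genes. The first sequence below is shown because a region gained with IGF1 in EF cells lies on it, the second because the other Pparg start with peaks had none in EF_IGF1 cells, and the third because no library had a peak on the Lep start. Capitals mark the letters of the C/EBP motif, TTGCNNAA, found on either strand.
Pparg, start 3, chr6:115421816-115422115, + strand: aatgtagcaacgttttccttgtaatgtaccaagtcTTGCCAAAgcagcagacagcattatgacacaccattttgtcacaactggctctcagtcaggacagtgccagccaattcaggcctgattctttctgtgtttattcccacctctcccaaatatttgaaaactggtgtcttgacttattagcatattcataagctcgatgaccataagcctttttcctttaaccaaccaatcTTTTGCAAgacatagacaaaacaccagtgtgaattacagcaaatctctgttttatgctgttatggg
Pparg, start 1, chr6:115360894-115361193, + strand: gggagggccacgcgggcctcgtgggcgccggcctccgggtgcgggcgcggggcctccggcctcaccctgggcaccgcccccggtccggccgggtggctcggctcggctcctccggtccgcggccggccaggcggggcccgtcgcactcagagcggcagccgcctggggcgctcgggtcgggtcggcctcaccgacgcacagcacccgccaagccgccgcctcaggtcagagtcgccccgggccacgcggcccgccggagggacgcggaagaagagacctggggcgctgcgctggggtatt
Lep, chr6:29059971-29060270, + strand: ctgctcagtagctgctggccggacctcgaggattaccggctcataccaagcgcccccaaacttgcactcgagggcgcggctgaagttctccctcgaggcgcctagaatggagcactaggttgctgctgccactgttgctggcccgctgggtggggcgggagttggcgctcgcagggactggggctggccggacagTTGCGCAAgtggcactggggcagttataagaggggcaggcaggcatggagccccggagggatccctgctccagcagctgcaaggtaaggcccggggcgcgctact
The window at the third Pparg start held C/EBP letters beginning at -215 and at -16 bases from the start. The merged region there covered 206 bases of the window, including the letters at -215, and ended 29 bases before those at -16. The Lep window held C/EBP letters at -55, and the first Zfp423 window, on the - strand of chromosome 8, held them at -131 and at 22. Of all 32619 promoter windows in the table, 10.9% held these letters. The other motifs searched on both strands were a direct repeat of AGGTCA with 1 base between the copies, for PPAR (0.0399% of all windows), GGAATG, for TEAD (14.6%), TGANTCA, for AP-1 (7.85%), GGAAGGAA, for ETS factors (3.69%), and TCCC and GGGA with 2 bases between them, for EBF (0.907%). None of the 11 windows held letters of these other motifs, and no found motif overlapped another.

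Between 7748 peaks (Wt replicate 1) and 83718 peaks (Wt_IGF1) were deposited per library, and the lists on flowcell BSF_1013 had 59325 and 63506 peaks for EF_IGF1 against 52823 and 67340 for EF replicates 3 and 4. Read totals were not given in the sources used here. Regions of 10 mesenchymal marker genes such as Pdgfra and Prrx1 were called at 30.4% in the xeno library, 36.4% and 38.6% in EF_IGF1, 17.4% to 47.8% in EF, 47.3% in Wt_IGF1 and 1.09% to 59.2% in Wt. Of all regions, 26.7% were called in the xeno library, 36.8% and 39.5% in EF_IGF1 and 16.7% to 42.4% in EF. Wt_IGF1 called 51.9% of all regions and the Wt libraries 4.87% to 43.7%, so marker shares partly follow the length of the list. Regions of 12 blood marker genes such as Ptprc and Spi1 were called at 66.4% in Wt replicate 2 (38.4% of all regions), against 8.8% to 42.4% in the other libraries (4.87% to 51.9% of all regions). That library, labelled WT_2, held 24 of the 76 regions of the 10 genes that were called in a single library (31.6%, beside 40.3% of all regions called in a single library). The library labelled EF_IGF1 replicate 1 (line S_220) shared more regions with EF replicate 4 of line S_221 (Jaccard index over all regions 0.599) than with EF replicate 3 of line S_220 (0.406), so its line is given as labelled. In mixed cells, fewer cells of a type and less open DNA per cell cannot be told apart.

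The 228 regions were spread unevenly over the genes. Ebf1, a large gene on chromosome 11, had 52 of them, Ebf2 on chromosome 14 had 33, Cebpb on chromosome 2 had 32, and Pparg on chromosome 6 and Zfp423 on chromosome 8 had 28 each. Lep had 15, Lpl and Klf15 12 each, Cebpa 11 and Cebpd 5. Of the regions, 115 (50.4%) overlapped the body of their gene, against 55.2% of all regions, and their median width was 432 bp, against 412 bp. Regions called in all 12 libraries were 2 of the 228 (0.877%), against 3.77% of all regions. The regions farthest from their gene but inside the limit lay 98818 bp from Cebpb (called in 10 libraries) and 95405 bp from Ebf1 (3 libraries); just outside it lay regions 107785 bp from Cebpb (1 library) and 107803 bp from Ebf2 (2 libraries).

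Called regions of the 10 genes numbered 57 in the EF_IGF1_xeno library, 78 and 105 in EF_IGF1, 49, 27, 47 and 83 in EF, 130 in Wt_IGF1, and 4, 65, 96 and 101 in Wt. Wt_IGF1 was the highest and Wt replicate 1, with its short list, the lowest. Per 1000 regions called in a library this was 1.39 in the xeno library, 1.38 and 1.73 in EF_IGF1, 0.982, 1.06, 0.932 and 1.28 in EF, 1.63 in Wt_IGF1 and 0.536, 1.1, 1.77 and 1.51 in Wt. On this scale both EF_IGF1 libraries and the xeno library lay above the 4 EF libraries, and the Wt libraries of flowcell BSF_1013 lay within the EF_IGF1 range or above it.

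**Figure D1:**
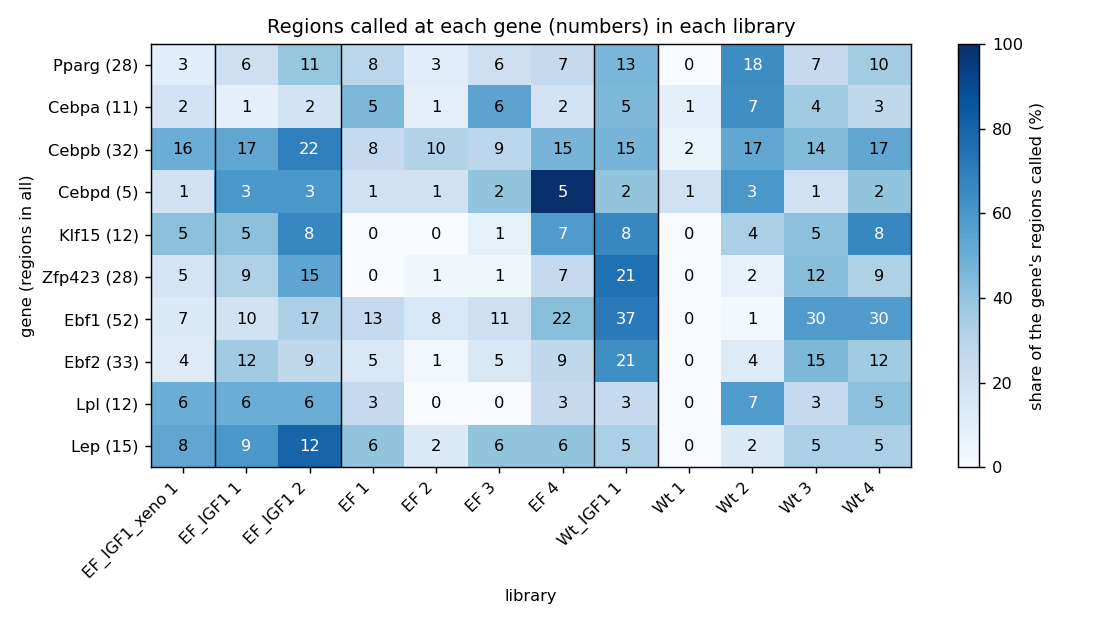
Number of regions called at each gene (rows, with the gene's regions in all in brackets) in each of the 12 libraries (columns, grouped by genotype label); the colour gives the called share of the gene's regions in percent. Lep was called most often in the EF_IGF1_xeno and EF_IGF1 libraries (8, 9 and 12 of 15 regions). Ebf1 and Zfp423 reached their highest counts in Wt_IGF1 (37 of 52 and 21 of 28), which also called the largest share of all regions (51.9%). Per 1000 regions called, Zfp423 was still highest in Wt_IGF1 (0.264), while Ebf1 was higher in Wt replicate 3 (0.553) than in Wt_IGF1 (0.465).

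With IGF1, EF cells on flowcell BSF_1013 gained 21 regions at 8 of the 10 genes and lost 1. To count as gained, a region needed a peak in EF_IGF1 replicates 1 and 2 and none in EF replicates 3 and 4; lost regions had the opposite pattern. The gained regions lay at Cebpb (5), Lep (4), Zfp423 (4), Lpl (3), Pparg (2), Ebf1, Ebf2 and Klf15 (1 each), and the lost region at Ebf2; Cebpa and Cebpd had neither. They were 9.21% of the 228 regions, beside 2.7% of all regions gained, and the lost region was 0.439%, beside 2.08% of all regions lost. Since the genes were selected on this contrast, nothing is read from these shares. The authors' fold over local background at the gained regions was between 3.23 and 13.2 in the EF_IGF1 libraries, with a median of 6.27, beside 6.07 over all 4135 gained regions.

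Lep encodes the satiety hormone and stands at chr6:29060221-29073876. Its regions were called 8 times in the xeno library, 9 and 12 times in EF_IGF1, 6, 2, 6 and 6 times in EF, 5 times in Wt_IGF1 and 0, 2, 5 and 5 times in Wt. The EF_IGF1_xeno and EF_IGF1 libraries were thus above every other library. A gained region inside the gene, chr6:29073448-29073813, had its summit 13409 bp after the start, close to the gene's far end. Its fold was 9.63 in the xeno library and 11 and 7.68 in EF_IGF1, and no other library had a peak there. A second one upstream, chr6:29031186-29031692, was likewise called in the xeno library (fold 5) and in EF_IGF1 (6.47 and 6.57) alone. Its neighbour chr6:29031804-29032686 was called in EF_IGF1 (4.01 and 6.28) and in Wt replicate 4 (5.88). The fourth, chr6:29089360-29089714, downstream of the gene, was called in the xeno library (7.59), in EF_IGF1 (4.55 and 4.62) and in EF replicate 2 (6.86) of the other flowcell. No library had a peak over the Lep start window printed above, whose C/EBP letters lie at -55, although 18.4% to 40.2% of all promoter windows were overlapped in a library.

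Cebpb, an early factor of the relay, occupies only chr2:167688915-167690432, and 30 of its 32 regions lie outside it, most of them downstream. It had 16 regions called in the xeno library, 17 and 22 in EF_IGF1, 8, 10, 9 and 15 in EF, 15 in Wt_IGF1 and 2, 17, 14 and 17 in Wt. By count, both EF_IGF1 libraries were above the 4 EF libraries, and EF_IGF1 replicate 1 was level with Wt replicates 2 and 4. Per 1000 regions called in the library, EF replicate 2 (0.391) was above both EF_IGF1 libraries (0.301 and 0.363). EF replicates 1, 3 and 4 (0.16, 0.179 and 0.231) were below both on this scale. The 5 gained regions had summits 7464, 38417, 53732, 72852 and 92811 bp after the start. Those at 7464 bp (folds 3.23 and 3.60 in EF_IGF1) and at 92811 bp (3.87 and 3.27) were called in EF_IGF1 alone. The region at 38417 bp, chr2:167727165-167727573, was called in the xeno library (5.46) and in EF_IGF1 (5.05 and 5.38) alone. The other 2 had peaks in wild-type cells as well. At 72852 bp the call was shared by the xeno library and Wt replicate 2, and at 53732 bp, chr2:167742496-167742939, by Wt_IGF1 (5.95) and Wt replicates 2, 3 and 4 (4.86, 5.21 and 7.79).

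**Figure D2:**
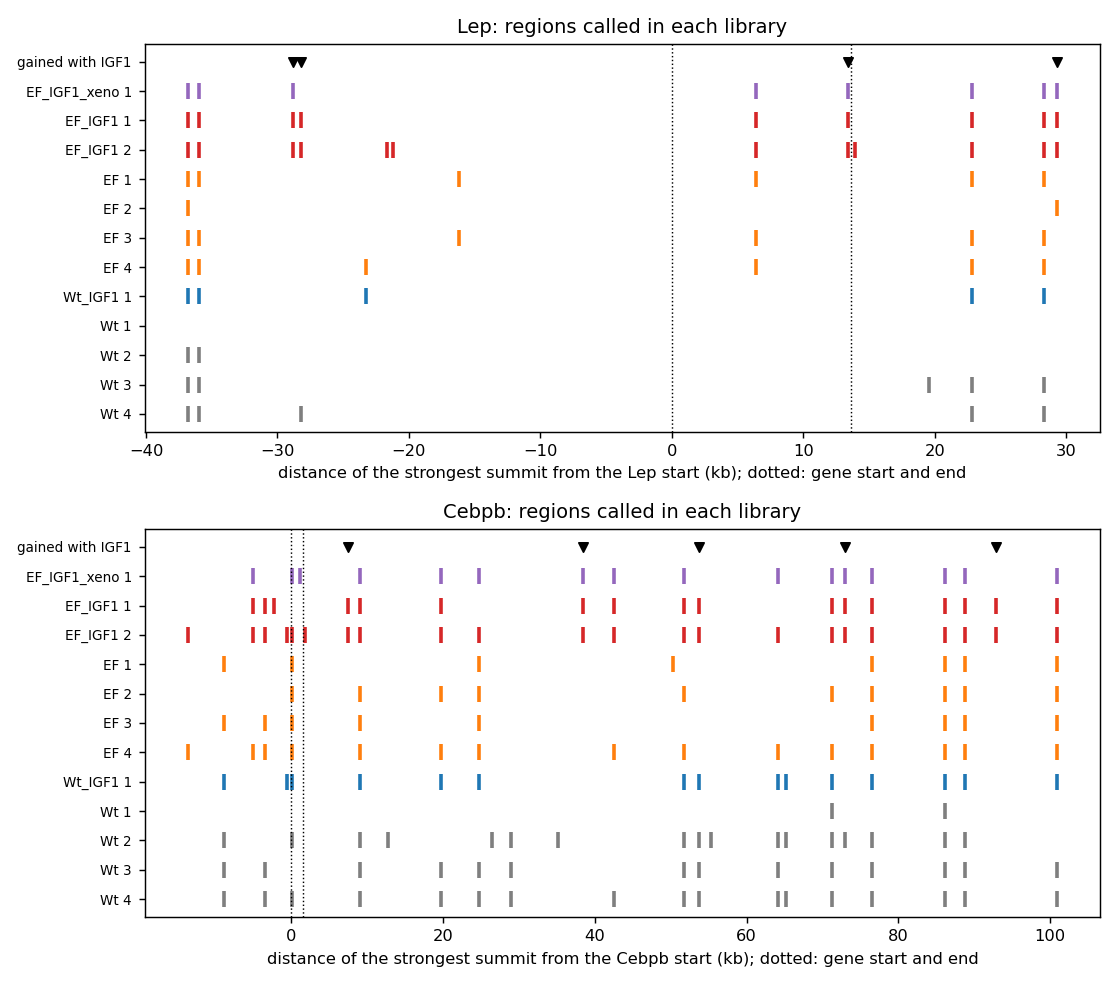
Regions of Lep (upper panel) and Cebpb (lower panel) by the distance of their strongest summit from the gene start in kb, with 1 row for each library coloured by group and black triangles for regions gained with IGF1 in EF cells; dotted lines are the gene's start and end. The gained Lep regions lie on both sides of the gene and in it, with none at the start, and the gained Cebpb regions all lie downstream, out to 92.8 kb.

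Pparg has 3 annotated starts in the table, and both regions gained with IGF1 lie just upstream of the third, the most downstream one, with summits at -941 and -249 bp from it. The nearer region, chr6:115421738-115422021, covers the printed C/EBP letters at -215 and had folds of 7.03 and 7.53 in EF_IGF1, 6.49 in Wt_IGF1 and 5.48 in Wt replicate 4. The farther one, chr6:115420934-115421270, had folds of 5.86 and 8.90 in EF_IGF1 and no peak in any other library. Neither was called in the xeno library. At the first start the picture was different: region chr6:115360823-115362002 was called in EF replicate 4, Wt_IGF1 and Wt replicates 2, 3 and 4, and in neither EF_IGF1 nor the xeno library. Over all 28 Pparg regions, 3 were called in the xeno library, 6 and 11 in EF_IGF1, 8, 3, 6 and 7 in EF, 13 in Wt_IGF1 and 0, 18, 7 and 10 in Wt. The group ranges overlap, and the highest count was that of Wt replicate 2, the library with most blood-marker regions, which alone held 9 of the 28; the part of blood cells in this was not tested.

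Lpl, which draws lipoprotein fat into cells, was called at 6 of 12 regions in the xeno library and in each EF_IGF1 library, at 3, 0, 0 and 3 in EF, at 3 in Wt_IGF1 and at 0, 7, 3 and 5 in Wt. Both EF_IGF1 libraries were above the 4 EF libraries, and Wt replicate 2 was above them all. Its gained region chr8:68880342-68881798 spans the gene end with the lower coordinate. It had folds of 8.31 in the xeno library, 7.96 and 8.89 in EF_IGF1, 5.45 in EF replicate 1, 5.90 in Wt_IGF1 and 8.15, 6.15 and 5.29 in Wt replicates 2, 3 and 4. Another, chr8:68953825-68954462, lies 46893 bp from the gene and was called in the same libraries, with folds of 12 in the xeno library, 13.2 in both EF_IGF1 libraries, 5.10 in EF replicate 1, 10.2 in Wt_IGF1 and 9.56, 13.1 and 12.1 in Wt. At both, the libraries without a peak were EF replicates 2, 3 and 4 and Wt replicate 1. The last one, chr8:68918338-68918786, was called in the xeno library (5) and in EF_IGF1 (7.03 and 4.86) alone.

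Zfp423, the commitment factor, had 5 of 28 regions called in the xeno library, 9 and 15 in EF_IGF1, 0, 1, 1 and 7 in EF, 21 in Wt_IGF1 and 0, 2, 12 and 9 in Wt. Both EF_IGF1 libraries exceeded all EF libraries, and Wt_IGF1 exceeded every library. The gained regions chr8:87692588-87693252 and chr8:87701720-87702529, both inside the gene, were also called in the xeno library, Wt_IGF1 and Wt replicate 3, the second in Wt replicate 4 too; its folds were 10.7 in the xeno library, 9.09 and 10.4 in EF_IGF1, 8.73 in Wt_IGF1 and 10.5 and 9.38 in the Wt libraries. The other 2, chr8:87858580-87858820 inside the gene and chr8:87967856-87968280 at 5803 bp from it, were called in EF_IGF1 alone. A peak over the window of its second start occurred in EF_IGF1 replicate 2, and none over that of the first.

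Klf15, an activator of Pparg, had 5 of 12 regions called in the xeno library, 5 and 8 in EF_IGF1, 0, 0, 1 and 7 in EF, 8 in Wt_IGF1 and 0, 4, 5 and 8 in Wt. EF replicate 4 was inside the EF_IGF1 range. The gained region chr6:90518814-90519203, 27011 bp from the gene, was called in EF_IGF1 (5.98 and 5.09) and in the xeno library (5.26) alone. The Klf15 start window had peaks in Wt_IGF1 and in Wt replicates 2 and 4, and in no EF, EF_IGF1 or xeno library.

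Ebf1 and Ebf2 encode related factors of stromal and fat precursors, and Ebf1 also acts in B lymphocytes. Ebf1 had 7 of 52 regions called in the xeno library, 10 and 17 in EF_IGF1, 13, 8, 11 and 22 in EF, 37 in Wt_IGF1 and 0, 1, 30 and 30 in Wt. The EF_IGF1 counts lay within the EF range, below Wt_IGF1 and below Wt replicates 3 and 4. Per 1000 regions called in the library, EF_IGF1 replicate 1 (0.177) lay below all EF libraries (0.218 to 0.339). EF_IGF1 replicate 2 (0.28) lay within the EF range on this scale. The gained region of Ebf1, chr11:44951412-44951963 in the gene, was also called in the xeno library, EF replicate 2, Wt_IGF1 and Wt replicates 3 and 4. Ebf2 had 4 of 33 regions called in the xeno library, 12 and 9 in EF_IGF1, 5, 1, 5 and 9 in EF, 21 in Wt_IGF1 and 0, 4, 15 and 12 in Wt. Its gained region, chr14:67258320-67258647 in the gene, was shared with Wt_IGF1 alone (fold 5.15, against 6.16 and 5.43 in EF_IGF1). The lost region, chr14:67234178-67234812, lies in the gene near its end of lower coordinate, and had folds of 5.63 and 13.4 in EF replicates 3 and 4, 8.92 in Wt_IGF1 and 11.3, 7.12 and 14.4 in Wt replicates 2, 3 and 4. EF_IGF1, the xeno library and EF replicates 1 and 2 had no peak there.

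Cebpa, which maintains the mature fat cell, had 2 of 11 regions called in the xeno library, 1 and 2 in EF_IGF1, 5, 1, 6 and 2 in EF, 5 in Wt_IGF1 and 1, 7, 4 and 3 in Wt. Its start region, chr7:35118170-35119976, was called in 10 libraries and missed in EF_IGF1 replicate 1 and EF replicate 2; in EF_IGF1 replicate 2 its peak did not reach the start window. Cebpd, active early with Cebpb, had 1 of 5 regions called in the xeno library, 3 in each EF_IGF1 library, 1, 1, 2 and 5 in EF, 2 in Wt_IGF1 and 1, 3, 1 and 2 in Wt. Region chr16:15886582-15888213, over the Cebpd end of lower coordinate, was called in all 12 libraries, with folds between 4.98 (Wt replicate 1) and 10.5 (xeno library). The other region called in all 12, chr2:167774746-167775717, lies 84314 bp from Cebpb. The Cebpb start window had peaks in 9 libraries and none in EF_IGF1 replicate 1, Wt replicate 1 and Wt replicate 3.

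**Figure D3:**
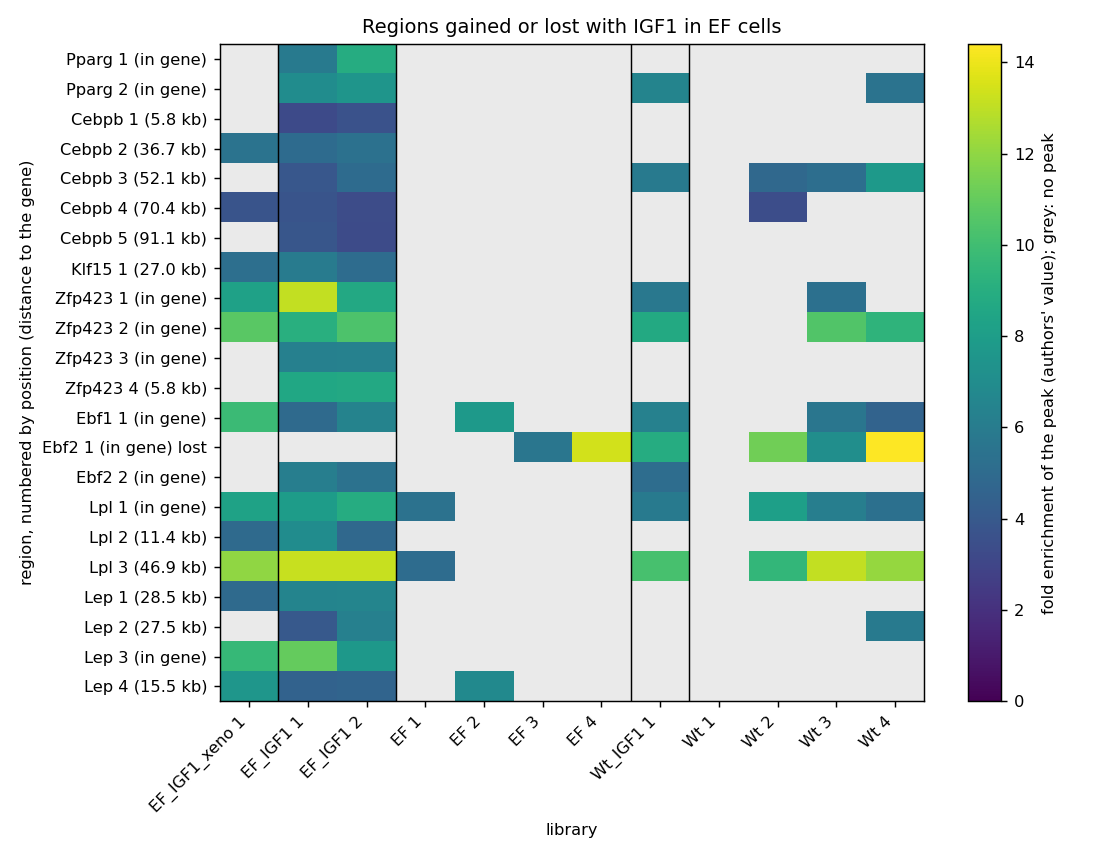
The 21 regions gained and the 1 lost with IGF1 in EF cells (rows, numbered by position within a gene, with the distance to the gene in kb) over the 12 libraries; the colour is the authors' fold of the peak and grey means no peak. The columns of EF 3 and EF 4 are grey at every gained region by the rule; 10 rows have a peak in a Wt or Wt_IGF1 library and 12 in the EF_IGF1_xeno library.

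Calls in the libraries outside the contrast do not enter the rule for a gained region. The genes were chosen with earlier results of these data known, so these libraries are not independent of the choice. Of the 21 gained regions, 12 (57.1%) were called in the xeno library, beside 47.3% of all gained regions. Wt_IGF1 called 8 of them (38.1%, beside 33.3%), and Wt replicates 1 to 4 called 0, 4, 6 and 7 (0%, 19%, 28.6% and 33.3%, beside 0.242%, 13.1%, 18.7% and 23.4%). A peak in at least 1 Wt or Wt_IGF1 library occurred at 10 of the 21 (47.6%, beside 44.6% of all gained regions), and 10 (47.6%, beside 53%) were called in no EF, Wt or Wt_IGF1 library; of these, 5 were also called in the xeno library. The EF libraries of flowcell BSF_0654, replicates 1 and 2, called 2 each (9.52%, beside 6.67% and 1.81%). The share of the 21 regions was above that of all gained regions in 7 of the 8 outside libraries, a difference that was not tested. Each library counts the same 21 regions, so the 8 libraries are not separate pieces of support.

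Counted within a line, the direction was the same in both EF lines. In the pair labelled S_220, 53 regions of the 10 genes were called with IGF1 only (23.2%, beside 16.7% of all regions) and 22 without IGF1 only (9.65%, beside 12.8%). In line S_221 there were 41 with IGF1 only (18%, beside 8.05%) and 19 without IGF1 only (8.33%, beside 10.9%). Across all regions the S_221 pair thus had more regions without IGF1 than with it, and the 10 genes the other way round. These pairs use the libraries of the contrast the genes were selected on. Lpl had 6 regions with IGF1 only and 0 without in S_220, and 3 and 0 in S_221. Cebpb had 11 and 3 in S_220, and 7 and 0 in S_221. Cebpa had 0 with IGF1 only and 5 without in S_220, and 0 and 0 in S_221, while Ebf1 had 6 and 7 in S_220, and 5 and 10 in S_221.

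**Figure D4:**
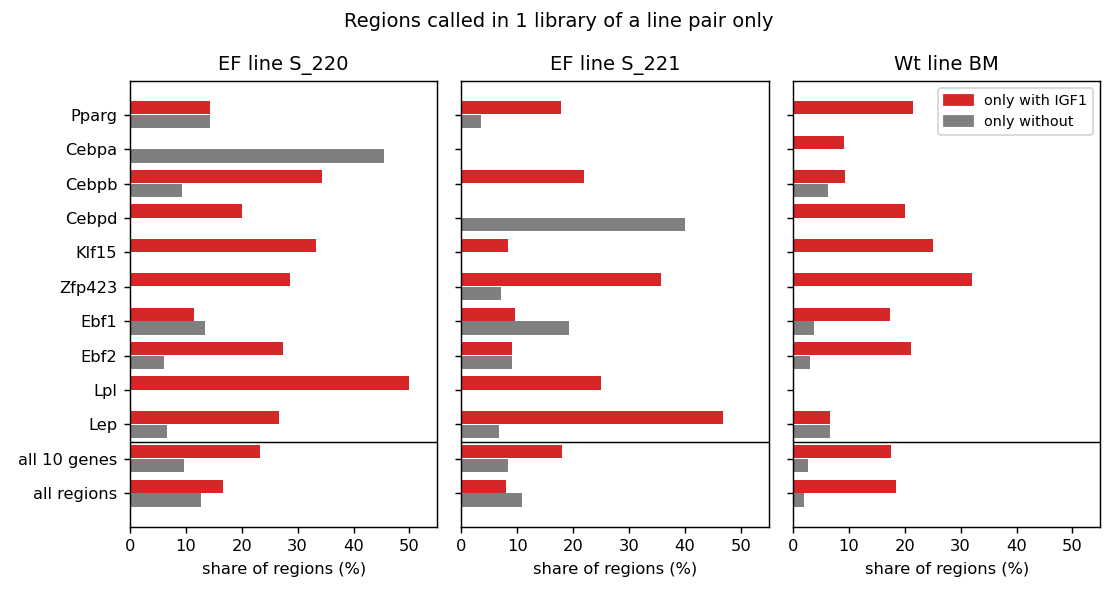
Share of the regions of each gene, of all 10 genes and of all 153346 regions that were called with IGF1 only (red) or without IGF1 only (grey) in the pair of libraries of each line on flowcell BSF_1013. In both EF lines the 10 genes together had more regions with IGF1 only (23.2% and 18%) than without (9.65% and 8.33%); in Wt line BM the shares were 17.5% and 2.63%, close to those of all regions.

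In wild-type cells, 1 library with IGF1 could be set against Wt replicates 3 and 4 of its flowcell, with no test. Wt_IGF1 gained 22 regions of the 10 genes (9.65%, beside 10.6% of all regions) and lost 4 (1.75%, beside 0.624%). The gained ones lay at Zfp423 (6), Ebf2 (5), Ebf1 (4), Pparg (3), Cebpa, Cebpb, Lep and Klf15 (1 each), and 14 of them (63.6%, beside 48.8% of all regions gained there) were called in no other library. The lost ones lay at Cebpb (2), Ebf1 and Ebf2 (1 each). Against Wt replicate 3 of the same line BM alone, 40 regions were called with IGF1 only (17.5%, beside 18.5%) and 6 without only (2.63%, beside 1.98%). Wt_IGF1 had the longest peak list of the series, and its gains at the 10 genes were near the share over all regions. The region of Ebf2 at chr14:67258320-67258647 was gained with IGF1 in EF and in Wt; this was 1 of 21 and 1 of 22 regions (4.76% and 4.55%), beside 10.3% and 2.61% of all gained regions.

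EF_IGF1_xeno against EF_IGF1 rests on a single xeno library. It gained 1 region (0.439%, beside 0.794% of all regions) and lost 17 (7.46%, beside 6.83%). Losses lay at Cebpb (4), Pparg (3), Zfp423 (3), Cebpd (2), Ebf2 (2), Lep, Ebf1 and Klf15 (1 each). Lpl had 6 called regions in the xeno library and in each EF_IGF1 library, and none of its regions was gained or lost. The gained region, chr2:167689977-167690207, lies inside Cebpb with a fold of 3.40. The shorter xeno list, of 43416 peaks, gives fewer calls over the whole genome.

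EF cells were set against Wt cells over 4 libraries each. The genes were picked with EF_IGF1 against EF in view and with earlier results of these data known. EF replicates 3 and 4 are also the EF side of that contrast. EF against Wt is therefore not independent of the choice, least of all within flowcell BSF_1013. Here a gain needed peaks in 3 or 4 of the 4 EF libraries with all Wt libraries empty, and a loss the opposite. By this rule 2 regions of the 10 genes were gained (0.877%, beside 1.19% of all regions) and 2 lost (0.877%, beside 0.938%). Wt replicate 1 called 4 of the 228 regions, so a loss mostly needed peaks in all of Wt replicates 2, 3 and 4. The low count of losses is therefore not read as likeness of EF and Wt cells. One gain was chr6:29066299-29066976 inside Lep, 6414 bp after the start, with folds of 8.13, 8.38 and 6.12 in EF replicates 1, 3 and 4; it was also called in the xeno library (5.29) and EF_IGF1 (5.47 and 8.07), and not in Wt_IGF1. The other, chr14:67170267-67170641 at 62651 bp from Ebf2, had folds of 9.82, 7.03 and 7.70 in the same EF libraries and was also called in the xeno library (5.71) and EF_IGF1 (13.3 and 6.48). Both losses were at Cebpb. Region chr2:167716925-167717981 had peaks in Wt replicates 2, 3 and 4 alone (6.69, 5.63 and 11.6), and the region at 53732 bp from the start, described above, lacked a peak in the 4 EF libraries.

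Within flowcells the counts differed. On BSF_1013, EF gained 2 regions (0.877%, beside 1.91%) and lost 19 (8.33%, beside 4.57%) against Wt, the losses lying at Ebf1 (9), Zfp423 (3), Cebpb (2), Lpl (2), Pparg, Ebf2 and Klf15 (1 each). On BSF_0654, EF gained 6 (2.63%, beside 4.09%), of which 4 were at Ebf1 and 2 at Cebpb, and lost 0 (beside 0.49%). There the Wt libraries were replicate 1, with 7748 peaks, and replicate 2, high in blood-marker regions. Wt replicate 1 also called blood-marker regions at a share (8.8%, 11 regions) above its share of all regions (4.87%). Its share of mesenchymal-marker regions was 1.09%. Of the 19 regions lost on BSF_1013, Wt_IGF1 called 16 (84.2%, beside 93.4% of all regions lost there).

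As a test over libraries, the regions of a gene called per 1000 regions called in the library were compared between EF and Wt by an exact two-sided permutation test, for 12462 genes with at least 3 regions. After Benjamini-Hochberg adjustment 0 genes passed 0.05, with 4.77% of genes (594) under 0.05 unadjusted in this permutation test and 0 of the 10 genes among them. Since 4 against 4 libraries cannot give a p under 0.0286, a lone gene could not pass the adjustment. The adjusted result therefore does not show that EF and Wt are alike at these genes. The Lep values were 0.12, 0.0782, 0.119 and 0.0924 in EF and 0, 0.034, 0.0922 and 0.0747 in Wt. They overlap, with EF replicates 1 and 3 above all Wt libraries. EF replicate 4 (0.0924, from 6 Lep regions) was nearly level with Wt replicate 3 (0.0922, from 5). Lep averaged 0.102 ± 0.0207 in EF and 0.0502 ± 0.0414 in Wt (n = 4 libraries each, ± SD), with an exact permutation p of 0.0571 and an adjusted p of 0.736 over all genes tested. EF replicates 1 and 3 came from line S_220 and EF replicates 2 and 4 from line S_221. The Wt libraries carry the line names WT_1, WT_2, BM and S_203. The test treats every library as a separate unit and does not take shared lines into account, so the EF SD covers only 2 lines. The Lep difference was larger on flowcell BSF_0654 (means 0.0993 in EF and 0.017 in Wt) than on BSF_1013 (0.106 and 0.0835). On BSF_0654 it rests on few Lep regions, 6 and 2 in EF replicates 1 and 2 and 0 and 2 in Wt replicates 1 and 2. Wt replicate 1 called only 7464 regions in all. These libraries also enter the exact permutation p of Lep. Ebf1 was the other gene with a higher mean in EF (0.283 ± 0.0538, against 0.255 ± 0.288 in Wt; exact permutation p = 0.8, adjusted p = 1). Its flowcells pointed opposite ways, with 0.278 in EF and 0.501 in Wt on BSF_1013, and 0.287 in EF and 0.0085 in Wt on BSF_0654. The other 8 genes had lower means in EF, and the median difference of the 10 was -0.0238, beside -0.00142 over all genes tested.

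**Figure D5:**
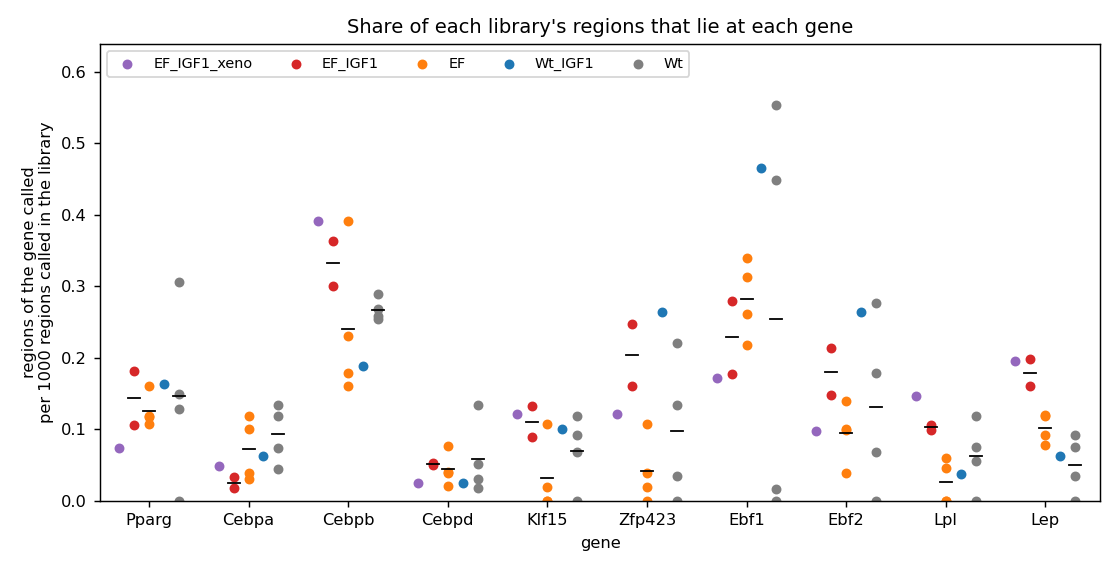
Regions of each gene called per 1000 regions called in the library, with 1 point per library, coloured by group, and a bar at the mean of groups with more than 1 library. For Lep the EF_IGF1_xeno and EF_IGF1 points lie between 0.16 and 0.198, above the EF points (0.0782 to 0.12) and the Wt points (0 to 0.0922).

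Other genes of the fat programme were counted from lists. Among 98 regions of 16 mature adipocyte genes, 4 were gained with IGF1 in EF cells and 0 lost (2.7% and 2.08% of all regions); they lay at Cidec, a lipid droplet protein gene, Pnpla2, the first lipase of fat breakdown, Dgat2, an enzyme of triglyceride synthesis, and Acaca, an enzyme of fatty acid synthesis. Among 251 regions of 15 other pro-adipogenic factors, 5 were gained, at Klf5 (2), Rxra, Ppargc1a and Stat5a (1 each), and 2 lost, at Klf4 and Stat5b. Factors that hold adipogenesis back had 4 gained, at Gata3 (2), Dlk1 and Sox9, and 4 lost of 126, of which 3 were at Zfp521, a counterpart of Zfp423, and 1 at Foxo1. These shares (4.08% gained at mature adipocyte genes, 1.99% at the other factors, 3.17% at those that hold adipogenesis back) lie around the share over all regions. Mesenchymal markers had 2 gained and 7 lost of 184 regions, with losses at Prrx1 (3), Pdgfrb, Thy1 and Cd44 (1 each) among them and gains at Eng and Nt5e. Blood markers had 5 gained, at Runx1 (3), Cd68 and Tal1, and 3 lost, at Runx1, Ptprc and Spi1, of 125 regions. Endothelial markers had 2 gained, both at Erg, and 3 lost, at Kdr (2) and Cdh5, of 93.

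The genes whose calls over the 12 libraries were most like those of 3 members were found by the mean absolute difference in the called share of their regions, among 8793 genes with at least 5 regions. Nearest to Cebpb were Bahcc1 (4.81 percentage points), Arhgef10 (4.84) and Spen (4.87). Nearest to Lep were Pawr and Tex35 (6.67 each) and Mgat3 (6.83), and nearest to Zfp423 were Adamts15 (5.36), Fgf18 (5.49) and Prl2c3 (5.95). Pawr, for example, had 58.3% of its 12 regions called in the xeno library, 66.7% and 83.3% in EF_IGF1, 16.7% to 41.7% in EF, 41.7% in Wt_IGF1 and 0% to 41.7% in Wt.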

How the data were processed

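The ATAC-seq peak lists were analysed as deposited, with 1 list for each of 12 libraries. Per the labels' protocols, cells were lysed with digitonin in the transposase mix and libraries were sequenced single-end. The submitters' processing notes name MACS2 (no version) and the build GRCm38.p3; the sources used here name no aligner, read filter, read shift, caller option or control. By the standard columns of a MACS2 peak list, the authors' deposited values are positions, a score derived from the q-value, the peak's fold enrichment (a ratio) and its −log10 p-value and −log10 q-value. They serve here to describe peaks and to filter or rank them within a list. Read totals, and so sequencing depth, are unknown; the number of peaks per library limits the precision, and an uncalled region may be open below the caller's threshold.

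Groups came from the genotype label, lines from titles, flowcells from labels. Peaks were merged and assigned to the nearest interval of a RefSeq gene (GRCm38.p6, whose chromosome coordinates match p3). Promoter windows came from RefSeq GRCm38.p6; no genome sequence was used, so regions outside those windows were not searched for motifs. Gained and lost regions are counts without a test, given beside the share over all regions. The test of EF against Wt was an exact two-sided permutation over 70 label orders with Benjamini-Hochberg adjustment; nothing says that libraries came from separate animals, so its p-values measure the spread between these libraries. The code was tested on simulated data. The genes and the lists were chosen with earlier results of these data known. All 10 genes were named, with each region gained or lost in EF_IGF1 against EF or in EF against Wt and the region at each gene start; genes of other lists were named where they held a region gained or lost with IGF1 in EF, at most 6 per list, in list order where numbers tied. The result of a further list is not reported here. Python 3.11.15, numpy 2.4.6, pandas 2.3.3, scipy 1.17.1 and matplotlib 3.10.9 were used. Stricter peaks, other windows, list lengths, distances, overlaps, flowcells, lines and left-out libraries were tried as alternatives.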

Additional observations from a re-analysis of the deposited data

Results flagged for a closer look

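The difference with IGF1 in regions called per 1000 regions called in the library went the same way in both EF lines and the opposite way in the Wt line BM for 4 of the 10 genes, with 1 pair of libraries per line; whether the EF and Wt differences are unlike was not tested. How many of all genes had this pattern was not counted, so 4 of the 10 is not read as unusual. For Cebpb the differences, with minus without IGF1, were 0.123 in the pair labelled S_220, 0.132 in S_221 and -0.0697 in BM. Those of Lep were 0.0405 in S_220, 0.106 in S_221 and -0.0294 in BM. Those of Lpl were 0.106 in S_220, 0.0528 in S_221 and -0.0176 in BM. For Ebf2 they were 0.114 in S_220, 0.00992 in S_221 and -0.0127 in BM. As plain counts, none of these genes had fewer regions called in Wt_IGF1 than in Wt replicate 3 of line BM: Cebpb had 15 and 14, Ebf2 21 and 15, Lep 5 and 5, and Lpl 3 and 3. The EF values belong to the contrast on which the genes were selected, and the negative BM values arise from dividing by 79524 called regions in Wt_IGF1, against 54203 in Wt replicate 3. Dixon's test flagged no library within the 4 EF or the 4 Wt libraries in any of 20 checks of a gene's share (chance flags about 1 in 20). That test looks for a lone outlying value and cannot flag a group that splits into pairs. The Ebf1 shares in Wt replicates 1 to 4, for example, were 0, 0.017, 0.553 and 0.448. The result is therefore no sign that the Wt libraries are alike.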

How the results depend on the processing

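Libraries could not be paired by replicate number, because these numbers follow accession order. Pairs by line name, given as counts, and labels exchanged within flowcells were used in its place. With 21 gained and 1 lost in EF_IGF1 against EF, line S_221 alone gave 41 and 19 and line S_220 alone 53 and 22; peaks with −log10 q of 5 or more gave 21 and 1. The 20000 strongest peaks per library left 8 gained with IGF1 in EF (1587 over all regions, where the main rule gave 4135), 0 gained and 1 lost in EF against Wt, 3 gained in Wt_IGF1 against Wt, and 3 gained and 2 lost in EF_IGF1_xeno against EF_IGF1. Regions within 10 kb gave 11 gained with IGF1 in EF, 1 gained and 0 lost in EF against Wt, and 2 lost in Wt_IGF1. Summit windows and a stricter overlap each gave 2 lost with IGF1 in EF and 2 gained in the xeno library. Flowcell BSF_1013 alone gave 19 lost in EF against Wt, and BSF_0654 alone 6 gained and 0 lost. Leaving out 1 library at a time gave 21 to 43 gained and 3 to 17 lost with IGF1 in EF (4896 to 17278 and 4282 to 16041 over all regions), 0 to 5 gained and 0 to 6 lost in EF against Wt (277 to 3759 and 87 to 2691), 40 to 43 gained and 6 to 14 lost in Wt_IGF1 (24430 to 28354 and 3033 to 11860), and 3 to 6 gained and 27 to 51 lost in the xeno library (3024 to 3040 and 18489 to 22715); fewer libraries make the rule easier to meet. In the share test 0 of the 10 genes passed in each alternative, all added after the data were seen; no p that so few libraries allow could pass the adjustment for a lone gene, so this says nothing about stability. With labels exchanged within flowcells, the exact permutation p of Lep was 0.0556, the smallest its 36 orders can give (adjusted p = 0.734). Of the alternative values, 51 were within 1.5 times the main count and 43 were not. The 51 include the share-test counts of 0, which say nothing about stability, so the larger number is no sign of it. Other causes were not tested.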
